A study of Zea mays with 5 samples.

Results

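CHH cytosines whose next base is also C were followed along 1 stretch of maize chromosome 9, between positions 4301438 and 4587776, in a library of DNA methylation from the centromere histone's chromatin. H stands for A, C or T, so these cytosines read CCA, CCT or CCC and lie outside the symmetric CG and CHG contexts. They were chosen from sequence context and read depth alone: context CHH, base after the cytosine C, and at least 5 reads. This gave 5027 cytosines, 31.6% of the 15915 CHH cytosines and part of the 26750 cytosines of any context with that depth, out of 43778 listed. The table listed 8430 CHH cytosines followed by C, of which 3403 had only 3 or 4 reads and were left out. Just outside the depth limit, the level was 1.17% at the 1661 cytosines with 4 reads, and just inside it was 1.21% at the 1108 with 5 reads.

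The library came from young leaves of Derivative_3-3, the maize material with a de novo centromere, per the series title. Nuclei were cut with micrococcal nuclease, DNA was recovered with a rabbit serum raised to CENH3 peptides, CENH3 being the histone H3 variant of active centromeres, and unmethylated cytosines were converted with bisulfite. Control and Derivative_3-3 seedling and young leaf RNA, 4 libraries in all, belong to the series and were not analysed here. There was 1 methylation library, with no replicate, no unprecipitated DNA and no control, so every interval and p-value below describes this library only. The table does not separate chromosome copies, and reads that bisulfite failed to convert count as methylated.

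Plants keep CG and CHG methylation through cell division by copying it from the old strand, whereas CHH methylation has to be set anew after each replication. In plants it is placed by DRM-type methyltransferases, which small RNAs guide to their targets, and in many species also by the chromomethylase CMT2. Maize lacks CMT2, and CHH methylation of its genome is known to be low overall and concentrated close to genes. In Arabidopsis, CMT2 acts most on CHH cytosines followed by A or T with A as the third base, so the bases after a CHH cytosine are known to matter there.

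The table gives each cytosine, its context and the base after it, so short stretches could be read back from it. The following stretches show 1 example of each of the 6 classes, the deepest cytosine of each, 5′ to 3′ on the strand of that cytosine. Capitals mark the cytosine measured and the C after it, and n is a base that was not read back. Bases were read only from listed cytosines and the base after each, so the G of a CCAG can show as n. The third base was read from the row of the next cytosine, and that next cytosine itself lies either in CHG (the classes whose name ends in G) or in CHH (those whose name ends in H). Coordinates are those of the file, for which the submitters' processing notes name the build B73 RefGen_v3; whether the first base of the chromosome is 0 or 1 in that numbering is not stated.
CCAG, chr9:4488847-4488855, + strand: CCannnnca
CCAH, chr9:4584240-4584260, + strand: cgtgggnnncanCCacannca
CCTG, chr9:4584201-4584225, + strand: tgncttgnnnctCCtgcaccancac
CCTH, chr9:4488917-4488935, + strand: ctnncgncCCtnnnctnca
CCCG, chr9:4354426-4354445, + strand: cannnccCCcgnnctnnnca
CCCH, chr9:4374111-4374135, - strand: cancancaccagCCctgggnccagt

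All 6 examples were unmethylated at the first C, with 0 methylated of 33, 32, 28, 22, 25 and 25 reads in the order shown. A count of 0 in 33 reads allows a level of up to 9.09%, counting 3 reads as the limit. The next cytosine of the CCAG, on the same strand and 1 base away, was methylated in 33 of 33 reads. That of the CCTG was methylated in 20 of 28 reads and that of the CCCG in 17 of 25, while the next cytosine was at 0 in the CCAH, CCTH and CCCH examples. A cytosine beside a fully methylated CHG could thus read as unmethylated in every read.

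Across all 5027 cytosines, 388 of 41350 reads were methylated, a level of 0.938% (Wilson 95% interval 0.850 to 1.04). The interval covers counting error only, because several reads can come from 1 molecule and 1 read spans several cytosines. CHH cytosines followed by T stood at 1.81% (1.69 to 1.94, 5294 cytosines) and those followed by A at 3.24% (3.09 to 3.41, 5594 cytosines). A binomial logistic model of reads with the 10 kb window as a term, and errors clustered over 210 bins of 1 kb, compared them at the same places of the region. The odds of a methylated read were 3.39 times higher for CA than for CC (95% interval 2.83 to 4.05, adjusted p = 2.46e-40 in this binomial model) and 1.88 times higher for CT than for CC (1.55 to 2.29, adjusted p = 7.98e-10). Median depth was 7 reads in each of these groups.

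The third base went with the level as well. At 1903 CCA cytosines 1.27% of reads were methylated (Wilson 95% interval 1.11 to 1.46), against 0.674% at 1713 CCT cytosines (0.551 to 0.824) and 0.753% at 1406 CCC cytosines (0.611 to 0.927). In the binomial model, with the context of the next cytosine held equal, the odds were 2.05 times higher in CCA than in CCT (95% interval 1.38 to 3.06, adjusted p = 0.000799 over 6 contrasts). The call was lost among cytosines with at least 10 reads (1.76 times, adjusted p = 0.181) and on the reverse strand alone (1.85 times, adjusted p = 0.0562 in the binomial model). CCA against CCC did not pass in the binomial model, at 1.56 times (1.00003 to 2.45, adjusted p = 0.0750), and it passed without the window from 4371438 alone (1.95 times, adjusted p = 0.00649) and with all listed cytosines (1.79 times, adjusted p = 0.00596). CCT against CCC did not pass in the binomial model either, at 0.762 times (0.498 to 1.16, adjusted p = 0.251). Even in CCA the level lay below the 1.81% of CT, a difference that was not tested.

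**Figure D1:**
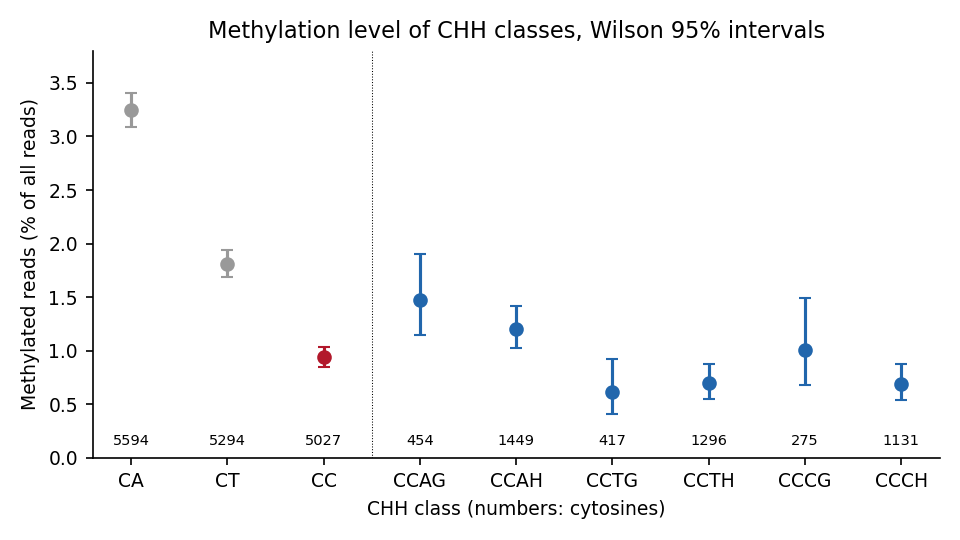
Methylated reads as a percent of all reads for CHH cytosines followed by A, T or C (left of the dotted line) and for the 6 classes of CC (right). Points are levels, bars are Wilson 95% intervals on reads and numbers are cytosines. CC lies at 0.938%, below CT at 1.81% and CA at 3.24%, and the CCAG and CCAH points lie above those of CCTG and CCTH.

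The context of the next cytosine made no difference that passed the test. The level was 1.05% where the next cytosine was in CHG (0.867 to 1.27, 1146 cytosines) and 0.885% where it was in CHH (0.787 to 0.995, 3876 cytosines). The odds were 1.24 times higher beside a CHG (95% interval 0.836 to 1.83, adjusted p = 0.287 in the binomial model), so a rise of up to 1.83 times lies within the interval. By class, CCAG stood at 1.47%, CCAH at 1.20%, CCTG at 0.612%, CCTH at 0.695%, CCCG at 1.01% and CCCH at 0.687%. CHG cytosines, which in maize are methylated by the chromomethylases ZMET2 and ZMET5, were densely methylated as the next base. Their level was 81.4% in CCAG (Wilson 95% interval 80.1 to 82.6), 78.7% in CCTG (77.3 to 79.98) and 57.5% in CCCG (55.5 to 59.5). In 436 of 454 CCAG, 395 of 417 CCTG and 259 of 275 CCCG the next cytosine was the more methylated of the pair. The first cytosine was the higher in 1 CCAG and in no CCTG or CCCG, and the remaining pairs were level.

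Where the next cytosine was in CHG and at 50% or more, the first cytosine stood at 1.15% (98 of 8505 reads, 975 cytosines). Where that CHG was under 50% it stood at 0.427% (6 of 1406 reads, 171 cytosines, Wilson 95% interval 0.196 to 0.928). Beside the 55 CHG cytosines at 0, 0 of 420 reads were methylated, which allows a level of up to 0.714%. The difference between these levels was not tested.

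Pairs in which both cytosines were CHH gave a comparison at 1 base distance with nearly shared reads, since 90.2% of the 5022 pairs of any class had the same total at both positions. In CCAH the first cytosine stood at 1.20% and the next, a CA, at 4.29% (Wilson 95% interval 3.94 to 4.67, 1449 pairs). In CCTH they stood at 0.695% and, for the CT, 2.05% (1.80 to 2.35, 1296 pairs). In CCCH, where the next cytosine is itself followed by C, they stood at 0.687% and 0.894% (0.721 to 1.11, 1131 pairs). The ratio of next to first was thus 3.57 in CCAH, 2.95 in CCTH and 1.30 in CCCH. The next cytosine was the higher in 212 CCAH pairs and the first in 41, and in CCTH these counts were 112 and 30. In CCCH they were 47 and 32.

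**Figure D2:**
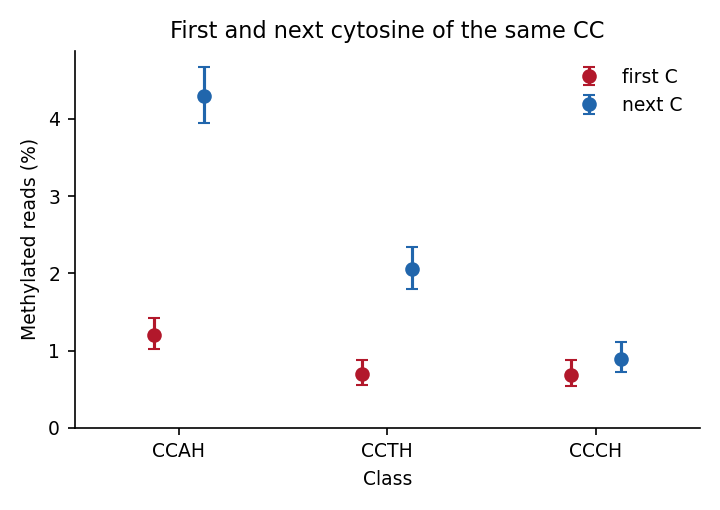
Methylated reads as a percent of all reads at the first cytosine of a CC (red) and at the cytosine after it (blue), for pairs with both in CHH. Bars are Wilson 95% intervals. The 2 points lie apart in CCAH (1.20% and 4.29%) and CCTH (0.695% and 2.05%), and their intervals overlap in CCCH (0.687% and 0.894%).

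Methylated reads at the first cytosine were not simply shared with the second. Of 158 CC cytosines with a methylated read and a CHH as the next base, 99 (62.7%) had no methylated read at that next cytosine. The level nevertheless went with that of the next CHH cytosine. It was 0.534% where the next was at 0 (3462 cytosines), 1.53% where it was above 0 and up to 20% (252 cytosines), 4.09% between 20% and 50% (133 cytosines), and 20.8% at 50% or more (29 cytosines, Wilson 95% interval 16.2 to 26.4). In the last class only 11 of the 29 cytosines had a methylated read. The cytosine at 4328533 alone held 16 of the 50 methylated reads of that class. These classes share reads and windows and are given as a description. A CC preceded by another C on its strand stood at 0.891% (0.719 to 1.10, 1134 cytosines), and the first of a run at 0.952% (0.851 to 1.06, 3893 cytosines), intervals that overlap.

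Most of these cytosines had no methylated read, and most methylated reads lay at cytosines with only 1 or 2 of them. No methylated read was found at 4803 of them (95.5%), and 224 (4.46%) had at least 1, against 8.81% of all CHH cytosines tested, 8.42% of those followed by T and 13.1% of those followed by A. Cytosines with 1 or 2 methylated reads held 309 of the 388 methylated reads (79.6%). At a median of 7 reads and a low level few cytosines could hold more, so this share cannot tell even spread from gathering. Whether the reads were more gathered than an even spread would give was not tested. The 17 cytosines with 3 or more held 79, and the 9 at 50% or more held 48. A level of 50% or more was reached by 0.179% of CC, 0.302% of CT and 0.787% of CA cytosines, beside 0.434% of all CHH. Without the cytosines at 50% or more the levels were 0.824% for CC, 1.64% for CT and 2.69% for CA.

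The number of methylated reads per cytosine had an uneven form. There were 105 CC cytosines with 1 methylated read and 102 with 2, then 5 with 3 and 8 with 4. CA cytosines with 2 methylated reads (325) even outnumbered those with 1, ahead of 37 with 3 and 48 with 4, and CT cytosines had 211, 173, 36 and 17. Unmethylated reads at CG cytosines with at least 5 reads also came as often in 2 (798 cytosines) as in 1 (787), then 210 with 3. Whether overlapping mates of a read pair were both counted is not stated in the labels or the file. If reads were counted in pairs, the counting intervals above would be too narrow: with the same level from 1 read in 2, the interval of CC would be 0.816 to 1.08%.

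**Figure D3:**
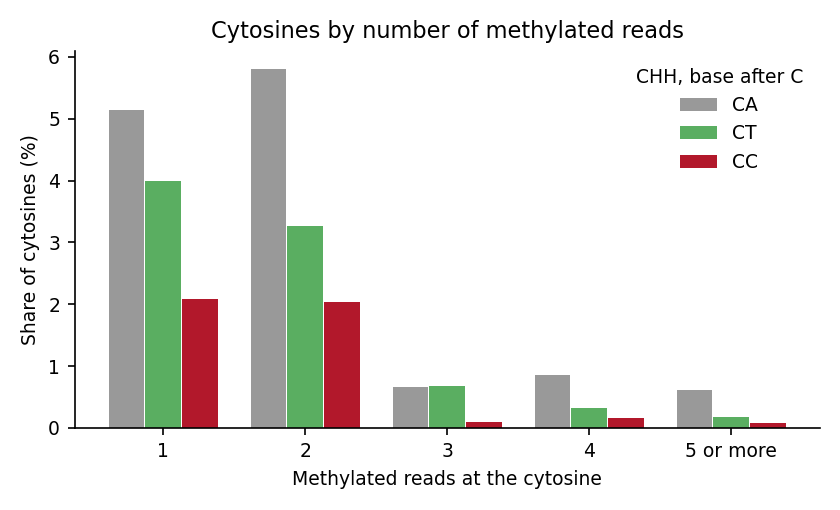
Share of CHH cytosines, in percent, with 1, 2, 3, 4, or 5 or more methylated reads, for those followed by A (grey), T (green) or C (red). Among CC cytosines 2.09% had 1 methylated read and 2.03% had 2, followed by a drop to 0.0995% with 3.

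Each CHH cytosine was then tested against the pooled CHH level of 2.04% by a one-sided exact binomial test, with adjustment over all 15915. This level bounds the share of unconverted reads from above, since some of it may be methylation. At an adjusted p of 0.05 or less, 15 CC cytosines passed, 0.298% of 5027, against 0.949% of all CHH, 0.699% of CT and 1.77% of CA cytosines. With the 7 reads of a typical cytosine, 3 methylated reads (42.9%) were needed to pass, so lower levels at single cytosines were not detectable at this depth. With reads counted in pairs 2 of the 15 passed, those at 4328533 and 4319270. Of the 15, 10 were CCA, 1 was CCT and 2 were CCC, and for 2 the next cytosine was not listed. Among all 5027 there were 1903 CCA, 1713 CCT and 1406 CCC, and 5 without a listed next cytosine. The difference in make-up was not tested.

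The stretches around the 6 strongest of these cytosines follow, to set beside the unmethylated examples. Capitals mark the cytosine tested and the C after it, and n is a base not read back, among them the G of the CCAG at 4471970.
Cytosine 4328533, CCAH, chr9:4328531-4328544, - strand: cancannnnnnCCa
Cytosine 4319270, CCAH, chr9:4319263-4319282, + strand: ccctcgnCCannnnnncgcc
Cytosine 4471970, CCAG, chr9:4471958-4471981, + strand: ccgcggcancctCCannnnnnnct
Cytosine 4471261, CCAH, chr9:4471249-4471273, - strand: ctcgggnnnncaCCancgncgnncg
Cytosine 4537089, CCAH, chr9:4537077-4537101, - strand: ctggnncanaggCCaagnnntgnnc
Cytosine 4537113, CCTH, chr9:4537101-4537125, + strand: gagntgnnnncgCCtnnnnnnctgg

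The cytosine at 4328533 was methylated in 16 of 22 reads (72.7%, Wilson 95% interval 51.8 to 86.8; adjusted p = 3.07e-19, exact binomial test), and the cytosine after it in 17 of 22. The cytosine at 4319270 was methylated in 6 of 6 reads (adjusted p = 5.4e-08, exact binomial test), as was the one after it. These 2 cytosines shared the CCA form and a next CHH cytosine that was itself methylated in most reads. The same traits were found at 4471261, 4537089, 4446505, 4327847 and 4314098, which also passed the test. At 4471970, a CCAG, 5 of 9 reads were methylated (adjusted p = 0.000172, exact test), and 7 of 9 at its CHG. The cytosines at 4471261, 4537089 and 4537113 each had 4 of 7 reads methylated (adjusted p = 0.00172 for each, exact test). Those at 4537089 and 4537113 lie on opposite strands of 1 short stretch. Among the other CHH cytosines within 30 bases on the same strand, 28 of 72 reads were methylated around 4537089, 9 of 50 around 4471261 and 8 of 38 around 4537113. These counts include the next cytosine, which had 7 of 7 reads methylated at 4537089, 7 of 7 at 4471261 and 2 of 7 at 4537113.

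Of the remaining 9, the cytosines at 4327829 (4 of 11 reads) and 4327847 (4 of 10) lie on the same strand in a stretch where other CHH cytosines within 30 bases were methylated in 41.5% and 39.1% of reads. Their next cytosines, methylated in 4 of 11 and 6 of 10 reads, are counted among those neighbours. Around 4578602 (4 of 9 reads) and 4560357 (4 of 10) the picture was different, with 0 of 92 and 0 of 74 reads methylated at such neighbours and the next cytosine at 0. At 4446505 there were 5 of 14 methylated reads, at 4314098 3 of 5, and at 4373195, a CCCG, 4 of 17. At 4317892 and 4457026, with 3 of 5 reads each, the next cytosine was not listed on that strand, and 0 of 43 and 0 of 25 reads were methylated at CHH neighbours. Only 5 of the 5027 cytosines lacked a listed next cytosine, and they carried 6 methylated of 31 reads. Across the 15, the next cytosine was at 50% or more in 9. Of these 9, those at 4471970 and 4373195 had a next CHG and the rest a next CHH. A next CHH was present at 11 of the 15. Among all CC cytosines, 975 of the 1146 with a next CHG had it at 50% or more. With a next CHH this held for 29 of the 3876. The nearest cytosines that did not pass were 4465124 with 3 of 11 reads and 4492463 with 3 of 12 (adjusted p = 0.113 and 0.145, exact binomial test).

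**Figure D4:**
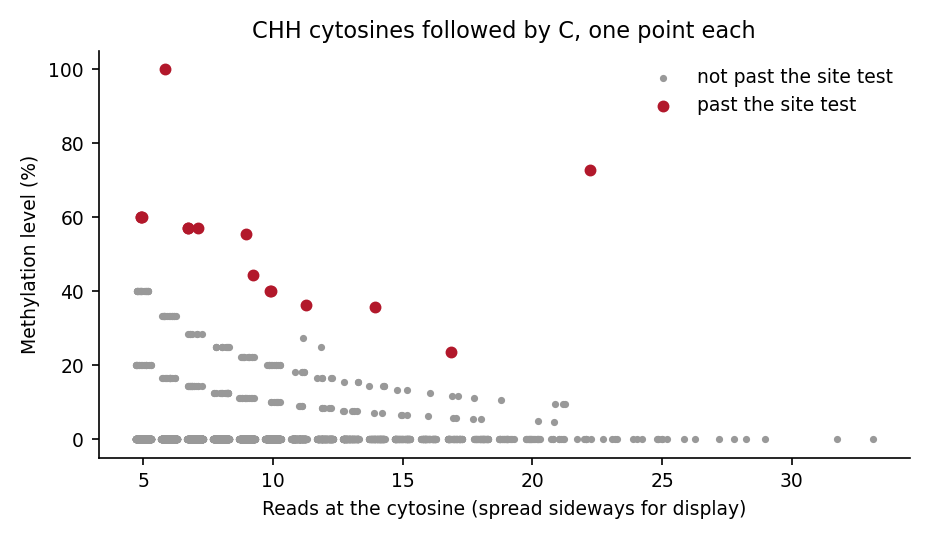
Methylation level in percent against the number of reads for each of the 5027 CC cytosines, with points spread sideways for display. Red points are the 15 past the exact binomial test, from 23.5% to 100%, and grey points the rest, most of them at 0.

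Methylated CC cytosines tended to have methylated CHH neighbours. Among CC cytosines with no methylated read, 42.7% had another CHH cytosine with a methylated read within 30 bases on the same strand, and the pooled level of those neighbours was 1.70%. Among the 207 with 1 or 2 methylated reads these values were 58.5% and 4.51%, and among the 17 with 3 or more they were 76.5% and 16.1%. A next cytosine in CHH is counted among these neighbours, so the values overlap with those given above by level of the next CHH cytosine. The neighbours without it were not looked at separately. Neighbours within 30 bases share reads, and the part of that sharing in these values was not tested.

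Along the region, most windows lay close together and a few stood apart. Among the 21 windows of 10 kb with at least 50 CC cytosines the median was 0.904%, and 18 of them lay between 0.506% and 1.66%. The highest of the 21 was 8.07% at 4321438 to 4331437 (36 of 446 reads, Wilson 95% interval 5.89 to 11.0, 62 cytosines), followed by 3.02% at 4491438 to 4501437 (17 of 563 reads, 1.89 to 4.78) and 2.02% at 4311438 to 4321437 (14 of 694 reads, 1.21 to 3.36). The window from 4321438 held the cytosines at 4328533, 4327829 and 4327847, with 16, 4 and 4 of its 36 methylated reads. Without the first of these, its only cytosine at 50% or more, it stood at 4.72%, still the highest of the 21. Its rank without all 3 was not worked out. The window from 4311438 held 3 cytosines at 50% or more and fell to 0.295% and rank 21 of 21 without them. The window from 4491438 held none, and its CG and CHG levels were low, at 39.4% and 33.6%. The lowest were 0.506% at 4381438 to 4391437 (15 of 2962 reads), 0.551% at 4441438 to 4451437 (14 of 2540) and 0.591% at 4541438 to 4551437 (8 of 1353). Of the 6 windows with fewer than 50 CC cytosines, 4 with 5 to 43 cytosines had no methylated read. The other two, chosen for mention once their values were known, had levels of 9.09% at 4401438 to 4411437 (4 of 44 reads, 8 cytosines, Wilson 95% interval 3.59 to 21.2) and 6.45% at 4411438 to 4421437 (2 of 31 reads, 6 cytosines, 1.79 to 20.7).

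**Figure D5:**
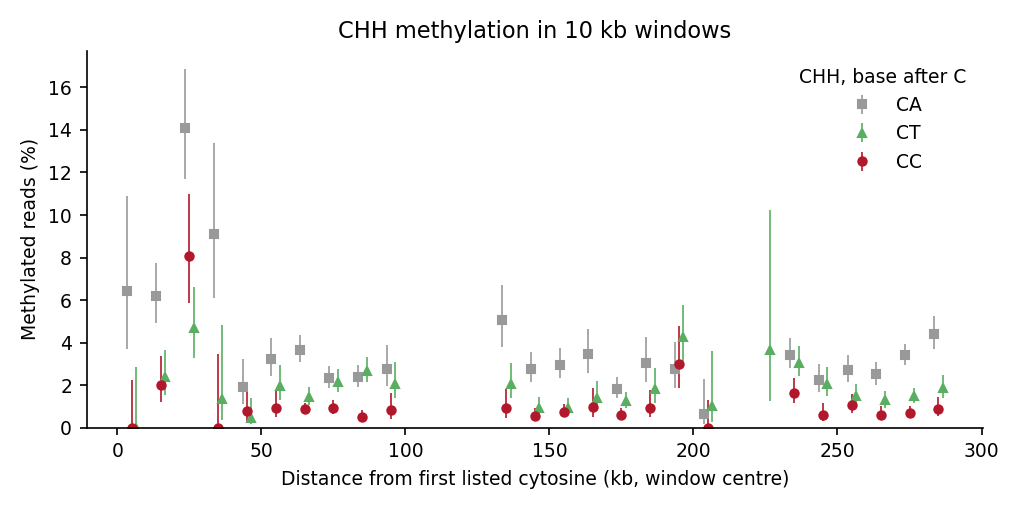
Methylated reads as a percent of all reads in 10 kb windows with at least 10 cytosines of the kind, against distance from the first listed cytosine in kb, for CHH followed by A (grey squares), T (green triangles) or C (red circles), set slightly apart sideways, with Wilson 95% intervals. CC is the lowest of the 3 in 20 of 24 windows and peaks at 8.07% near the left end.

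CC was the lowest of the CHH groups in most windows. Of 24 windows with at least 10 cytosines of each kind, CC lay below CA in 23, below CT in 21 and below both in 20. The exceptions included the windows with the highest CC levels. CC was above CA in the window from 4491438 (3.02% and 2.77%). It was above CT in those from 4321438 (8.07% and 4.67%) and 4341438 (0.774% and 0.478%), and level with CT at 0 in that from 4301438. The difference per window was 2.71 ± 2.04 percentage points from CA and 0.662 ± 1.02 from CT (mean and SD over 24 windows). Across these windows, which share 1 library and differ in depth, CC and CT levels correlated with r = 0.779 (rho 0.633), and with r = 0.610 without the 2 windows farthest from the median CC level. For CC and CA r was 0.695 (rho 0.314) and fell to -0.0086 without those 2, so r rested on them. The rho without those 2 was 0.270. With CG the r of CC was 0.051 (rho 0.028), and 0.388 (rho 0.140) without those 2 windows.

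No methylated CC read was found in the stretches with almost no CG methylation. In the 9 bins of 1 kb whose CG level was no more than 5% (bins with at least 5 CG cytosines were considered), 0 of 444 reads at 58 CC cytosines were methylated, which allows a level of up to 0.676%. The level was 0.887% where CG lay between 5% and 50% (98 cytosines), 1.08% between 50% and 80% (218 cytosines) and 0.915% at 80% or more (4524 cytosines), with intervals that overlap. In the 9 low bins CA stood at 0.520% (3 of 577 reads) and CT at 0 of 506 reads. Differences between these groups of bins were not tested.

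Strand and depth moved the level little, apart from the deepest cytosines. The forward strand stood at 0.918% (2596 cytosines) and the reverse strand at 0.960% (2431 cytosines). The level was 0.975% at 5 to 9 reads (3680 cytosines), 0.813% at 10 to 19 (1286 cytosines) and 1.75% at 20 or more (61 cytosines, 24 of 1369 reads). In the last group 16 of the 24 methylated reads came from the cytosine at 4328533.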

How the data were processed

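Per the labels' protocols, DNA precipitated with anti-CENH3 from nuclease-digested nuclei of young leaves was treated with bisulfite and sequenced, in 1 library. The submitters' processing notes name CASAVA, BWA 0.6.1 and B73 RefGen_v3 with no role. The caller, duplicate removal, treatment of repeats and conversion rate are not stated there or in the labels. Per the file headers, the authors' table gives each cytosine's methylated and total read counts, raw, and a methylation level as a fraction; in the deposited table this equalled methylated over total reads at every row (0 differed by more than 1e-06). No row has under 3 reads.

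A level here is the methylated share of reads pooled over cytosines of 5 reads or more. Windows of 10 kb and bins of 1 kb start at the first listed position. The third base and next context come from the row 1 base on, same strand. Groups were compared by a binomial logistic model on all 15915 CHH cytosines (window as a term, errors clustered over 1 kb bins, two-sided Wald p, Benjamini-Hochberg over 6 contrasts). Single cytosines were tested by an exact binomial test with Benjamini-Hochberg over all CHH. Named cytosines are those CC that passed, and named windows the 3 highest and 3 lowest with at least 50 CC. Members, lists and tests were chosen with earlier results of these data known. Scripts were tested on simulated reads. Python 3.11.15, numpy 2.4.6, pandas 2.3.3, scipy 1.17.1, statsmodels 0.14.6 and matplotlib 3.10.9 were used. No gene annotation was used, as the one at hand is of another build.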

Additional observations from a re-analysis of the deposited data

How the results depend on the processing

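CA and CT against CC stayed past the test in all alternatives run (odds ratios 3.10 to 3.71 and 1.75 to 2.03). CCT against CCC stayed short of it throughout (0.666 to 0.887). CCA against CCT was lost with at least 10 reads (1.76) and on the reverse strand alone (1.85), where fewer cytosines entered, and ranged from 1.76 to 2.57 in all. CCA against CCC passed with all listed cytosines (1.79) and without the window from 4371438 (1.95). It was weaker with at least 10 reads (1.25) and without cytosines at 50% or more (1.33). It ranged from 1.41 to 1.95 without single windows and from 1.25 to 1.95 in all. The cause was not tested. With the next cytosine in CHG the odds ratio was 0.914 on the forward strand alone and otherwise above 1, never past the test. The CC level was 0.824% without cytosines at 50% or more and 0.716% with reads counted in pairs and rounded down, which drops lone methylated reads by construction; leaving out single windows gave 0.861 to 0.972%. Cytosines past the site test numbered 15, and 6 with at least 10 reads, 8 and 7 on the forward and reverse strand, 2 with reads counted in pairs, and 12 to 15 without single windows; fewer cytosines or reads entered each. Counting in pairs and leaving out windows were chosen after seeing the data. No paired analysis was possible because there was 1 methylation library. Cytosines had a median of 7 reads, which limits single sites to large levels.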
